A study of Arabidopsis thaliana with 6 samples.

Results

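The genes described here are 7 classical defence effectors of Arabidopsis thaliana: PR1 (AT2G14610), PR2 (AT3G57260), PR5 (AT1G75040), PR3 (AT3G12500), PR4 (AT3G04720), CHIA (AT5G24090) and PDF1.2 (AT5G44420). They were chosen by locus, as a set of named pathogenesis-related, chitinase and defensin genes, with earlier results of these data known. All 7 were found among the 33602 genes of the count table. Their messenger RNA was measured in 2 kinds of cell from the floral abscission zone, the layers between which sepals, petals and stamens are shed. Secession cells (SEC) leave with the separated floral organs, and residuum cells (REC) stay on the receptacle. There were 3 SEC and 3 REC libraries, all from stage 16 flowers of soil-grown proQRT2::nlsGFP-GUS plants kept under 16 h of light and 8 h of dark. In this transgene the promoter of QRT2, a polygalacturonase gene active in the abscission zone, drives a nuclear fluorescent reporter, and protoplasts were sorted by its fluorescence. The labels name no infection or elicitor for either group, and do not say how many plants or sorts lie behind a library.

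In textbook terms, plants answer attack with secreted proteins that act on the invader, and these fall into a pair of hormone branches. Salicylate, acting through NPR1 and TGA transcription factors, turns on PR1, a secreted protein of the CAP family, PR2, a beta-1,3-glucanase that cuts a fungal wall polymer, and PR5, a thaumatin-like protein. Jasmonate together with ethylene, acting through EIN3 and ethylene response factors that bind the GCC-box, turns on PR3, a basic chitinase, PR4, a hevein-like chitin-binding protein, and PDF1.2, a plant defensin. CHIA is an acidic chitinase of another class. Ethylene also takes part in the timing of floral organ abscission.

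The 250 bases before the start of 3 genes are shown because the results turn on them: PR3 and PR4 were called higher in SEC, and PDF1.2 had no reads in either group. They are from RefSeq's TAIR10.1, are all on the minus strand and read 5′ to 3′ towards the gene. PR3 lies at chr3:3963985-3964234, PR4 at chr3:1286761-1287010 and PDF1.2 at chr5:17907639-17907888. Capitals mark a match, on either strand, to TTGAC (the core of the W-box of WRKY factors), TGACG (a site of TGA factors), GCCGCC (the GCC-box) or CACGTG (the G-box).

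PR3: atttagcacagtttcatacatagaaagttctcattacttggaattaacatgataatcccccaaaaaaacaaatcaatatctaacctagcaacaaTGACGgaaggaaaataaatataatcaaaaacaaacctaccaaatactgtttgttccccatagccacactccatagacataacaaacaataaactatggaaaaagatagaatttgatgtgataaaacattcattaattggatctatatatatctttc

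PR4: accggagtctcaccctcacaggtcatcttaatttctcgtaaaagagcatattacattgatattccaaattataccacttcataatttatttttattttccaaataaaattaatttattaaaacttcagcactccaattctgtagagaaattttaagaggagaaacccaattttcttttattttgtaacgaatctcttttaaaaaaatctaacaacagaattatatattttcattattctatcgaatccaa

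PDF1.2: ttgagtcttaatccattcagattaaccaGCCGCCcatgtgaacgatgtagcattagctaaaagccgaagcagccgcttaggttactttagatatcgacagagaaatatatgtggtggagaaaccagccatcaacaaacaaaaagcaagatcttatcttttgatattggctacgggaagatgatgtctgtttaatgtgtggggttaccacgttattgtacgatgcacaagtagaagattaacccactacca

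The PR3 window held TGACG, which begins 156 bases before the start and is found in 18.6% of 27443 promoters of the same length. PDF1.2 held GCCGCC 222 bases before its start, found in 1.9%. None of the 4 motifs was in the PR4 window. Of the windows searched but not shown, that of PR5 held TTGAC (44.9% of promoters) at 165 bases, that of PR2 held CACGTG (6.5% of promoters) at 131 bases, and that of CHIA held none. For PR3 and CHIA the annotated start is the first coding base, so any transcribed leader lies inside the window. A match is a run of letters and not a shown binding site, and a window without one says nothing of a factor.

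Total counts over genes were 13222538 to 17192864 per library, and 17644 to 19665 genes had at least 1 read. Libraries of 1 group resembled each other more than those of the other group: Pearson's r of log2 CPM across genes was 0.934 to 0.957 within SEC, 0.886 to 0.914 within REC and 0.448 to 0.563 between them. REC 3 lay closest to SEC, at 0.524 to 0.563. It was also the REC library with the most RNA of abscission genes that were high in SEC: ADPG2, an abscission polygalacturonase, stood at 5651, 3889 and 4149 CPM in the SEC libraries, against 0.783, 1.65 and 27.8 CPM in REC 1, 2 and 3. QRT2 itself, whose promoter drives the sorted reporter, stood at 1551, 1746 and 1846 CPM in SEC, against 23.3, 22.5 and 79.5 CPM in REC. REC 2 held 2446 reads of TGG2, a myrosinase gene of myrosin cells, and no other library more than 1. These libraries were kept, and results that rest on them are given with and without them. Levels are in CPM, that is counts scaled to a common library size with TMM factors.

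The 7 genes fell into 3 patterns. PR3 and PR4 were abundant in SEC and called higher there than in REC, and PR1 had a modest number of reads in SEC and none in REC. PR5 and CHIA were near the limit of detection, with more reads in REC and no call. PR2 had 8 reads in 1 REC library, and PDF1.2 had none at all. Across all tested genes, 60.8% were called different between the groups (edgeR quasi-likelihood F test, Benjamini-Hochberg adjusted p under 0.05), 28.9% as higher in SEC and 31.9% as lower in SEC. Of the calls 47.5% were higher in SEC, against 33.7% with scaling by library size alone. Of the 7 genes, 4 passed the filter on low counts, and 2 were called, both higher in SEC. With 4 tested genes nothing is read from that share. Each group is a bulk of sorted cells, so fewer cells making an RNA and less of it per cell cannot be told apart.

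**Figure D1:**
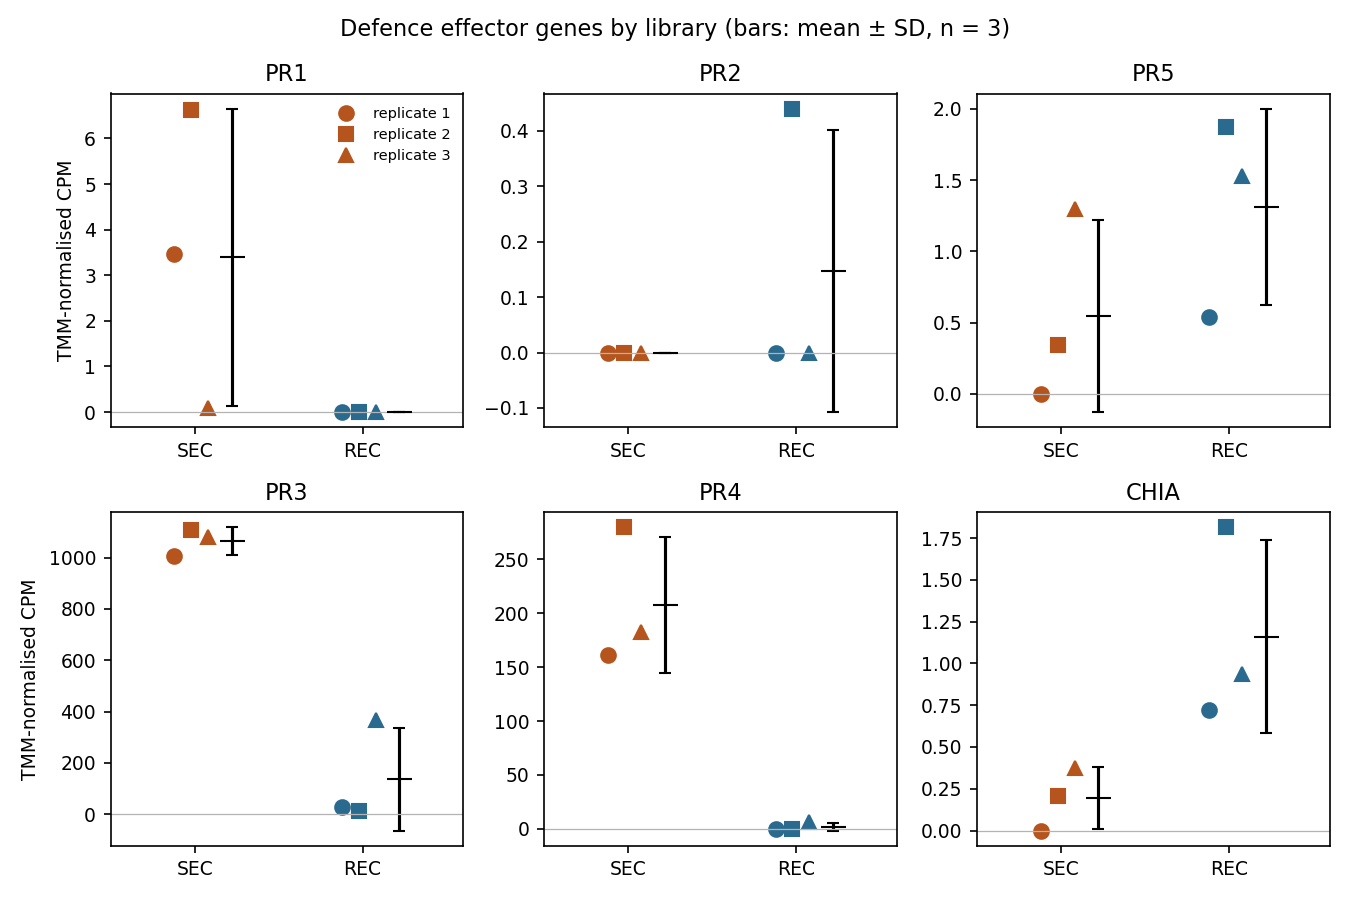
TMM-normalised CPM (vertical axes, each with its own scale) of 6 of the 7 genes in the SEC and REC libraries. Points are libraries, with a shape for each replicate number, and bars give the mean and SD of 3 libraries. PR3 at 1005 to 1109 CPM and PR4 at 161 to 280 CPM in SEC stand clear of every REC library, and REC 3 is the highest REC library for both.

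PR3 was the most abundant of the 7, by CPM and per length. Its gene lies at chr3:3962382-3963984 on the minus strand, with 1373 exon bases in 2 exons. SEC libraries held 11335, 16255 and 11639 PR3 reads, against 463, 270 and 6241 in REC 1, 2 and 3. In CPM this was 1005, 1109 and 1080 in SEC and 27.9, 14.8 and 366 in REC. The 3 SEC libraries lay within a narrow band, REC 3 lay between them and the other two REC libraries, and the groups did not overlap. This was so for 71.5% of tested genes, with SEC above REC for 34.6%. The means were 1065 ± 53.6 CPM in SEC and 136 ± 199 CPM in REC (SD, n = 3 each). The log2 fold change was 2.96 ± 1.07 (SE), with an edgeR adjusted p of 0.0406.

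The PR3 call was close to its threshold, and 1 library set its size. Without REC 3 the log2 fold change was 5.65 and the edgeR adjusted p 1.65e-05. With REC 3 kept, leaving out any one of the other five libraries gave 2.42 to 2.99 and ended the call, with adjusted p up to 0.0889 in the same test. Scaling by library size alone also ended it, at 2.45 (edgeR adjusted p 0.0694). The direction was the same in all 17 alternatives tried.

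PR3 stood among the most abundant RNAs of secession cells. Per kilobase of exon it averaged 776 ± 39.1 CPM in SEC and 99.3 ± 145 CPM in REC (SD, n = 3 each). Among 32835 genes ranked by CPM per kilobase it was number 140, 116 and 121 in SEC 1, 2 and 3, and number 4928, 7505 and 328 in REC 1, 2 and 3. The REC libraries therefore spanned a wide part of the ranking, and REC 3 came close to the SEC ranks.

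An RNA gene on the opposite strand, AT3G12502 at chr3:3963124-3964222, overlaps PR3. Its reads were 47.2%, 47.4% and 45.2% of those of PR3 in SEC 1, 2 and 3, and 46.0%, 52.2% and 47.1% in REC 1, 2 and 3. The ratio was thus nearly constant while PR3 itself ran from 14.8 to 1109 CPM. The strand setting of the counter is not given in the sources used here, so reads of the 2 genes cannot be told apart. For AT3G12502 the log2 fold change was 2.95 ± 1.05 (SE), with an edgeR adjusted p of 0.0388, and PR3 with those reads added had 2.96 (edgeR adjusted p 0.0405). None of the other 6 genes overlaps an annotated gene on the opposite strand.

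PR4 had the smallest adjusted p of the 4 tested effectors. The gene is at chr3:1285524-1286562 on the minus strand in the deposited table, and the RefSeq model, which reaches beyond that interval, has 1134 exon bases. SEC libraries held 1819, 4100 and 1968 PR4 reads, against 0, 0 and 105 in REC 1, 2 and 3. In CPM this was 161, 280 and 183 in SEC and 0, 0 and 6.16 in REC, so every REC read came from REC 3 and the groups did not overlap. The means were 208 ± 63.2 CPM in SEC and 2.05 ± 3.56 CPM in REC (SD, n = 3 each). The log2 fold change was 6.66 ± 1.44 (SE), with an edgeR adjusted p of 0.00438.

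The PR4 call held in all 16 alternatives tried, with adjusted p up to 0.0171. Without REC 3 the remaining REC libraries had 0 reads, and PR4 was at least 2490-fold higher in SEC, set against 3 counts over those REC libraries. Leaving out REC 2 instead gave a log2 fold change of 6.06. Per kilobase of exon PR4 averaged 183 ± 55.7 CPM in SEC and 1.81 ± 3.14 CPM in REC (SD, n = 3 each), which put it at rank 939, 478 and 756 in SEC 1, 2 and 3, against rank 10248 in REC 3. In SEC the level of PR4 per kilobase was thus below that of PR3 in each library.

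For both genes REC 3 was the high REC library, as it was for 4 of 5 abscission zone genes (QRT2, IDA, HAE and ADPG2). The fifth, HSL2, another receptor of the abscission peptide, was lowest in REC 3, with 17.5, 21.1 and 11.4 CPM in SEC, against 62.3, 64.9 and 39.9 CPM in REC 1, 2 and 3. IDA, the gene of the peptide hormone of shedding, had 495, 345 and 342 CPM in SEC, against 0, 0.330 and 6.16 CPM in REC 1, 2 and 3. HAE, a receptor of that peptide, had 1336, 1030 and 1573 CPM in SEC, against 122, 131 and 354 CPM in REC. The summed level of the 5 genes, none of them at 0 in a group, was 7030 to 9050 CPM in SEC, against 208, 220 and 507 CPM in REC 1, 2 and 3. The part this has in the PR3 and PR4 levels of REC 3 was not tested. The fold changes of PR3 and PR4 were larger without that library.

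**Figure D2:**
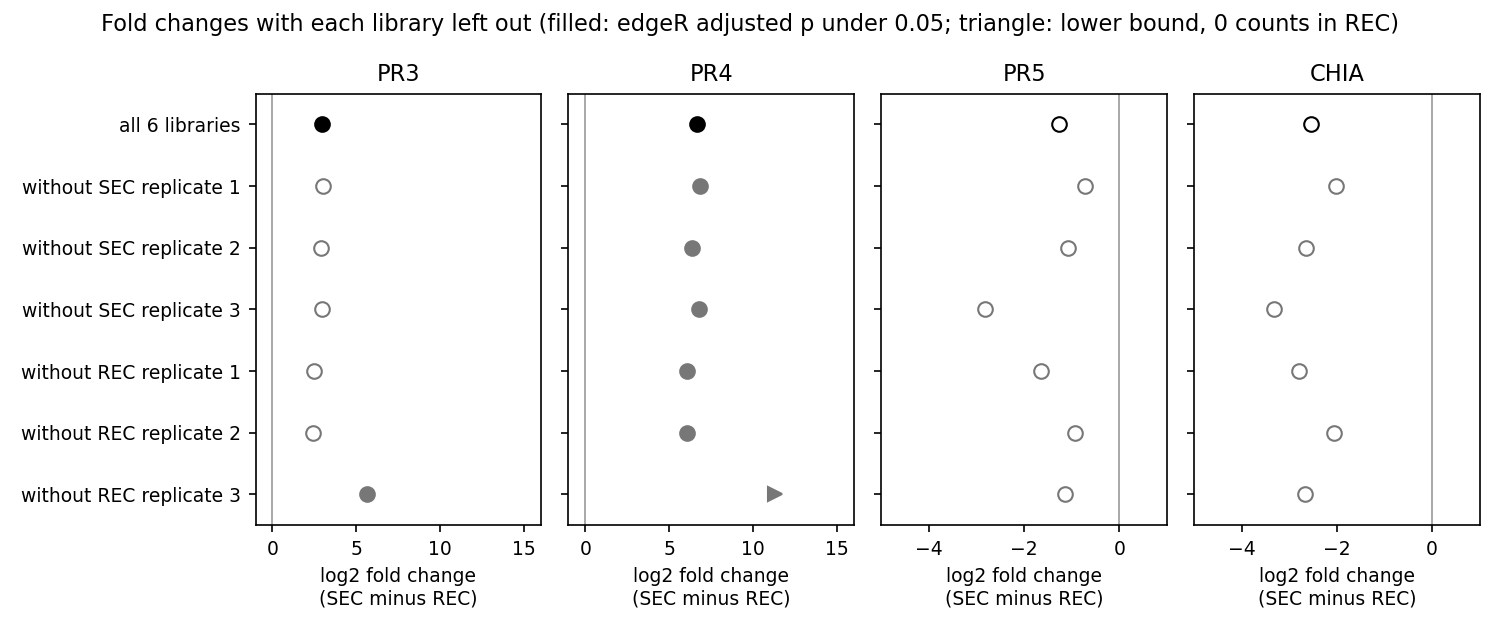
Log2 fold changes, SEC minus REC (horizontal axes), of the 4 tested genes with all 6 libraries and with each library left out. Filled points have an edgeR adjusted p under 0.05, and the triangle is a lower bound because the remaining REC libraries had 0 counts. PR4 stays filled throughout, while PR3 is filled with all libraries and without REC 3 alone.

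Of the salicylate-linked effectors PR1, PR2 and PR5, PR1 had the most reads in SEC. Its gene lies at chr2:6241704-6242463 on the minus strand in the deposited table. RefSeq gives it 1 exon, whose 902 bases reach beyond that interval. SEC 1, 2 and 3 held 39, 97 and 1 PR1 reads, against 0 in each REC library. In CPM the SEC values were 3.46, 6.62 and 0.0928, with a mean of 3.39 ± 3.26 (SD, n = 3), so SEC 3 lay far below the other two SEC libraries. With the 137 SEC reads pooled over the group's summed library sizes and set against 3 counts over the REC group, PR1 was at least 64.5-fold higher in SEC. The bound ran from 31.3-fold (without SEC 2) to 90.6-fold (without SEC 3) with each library left out in turn.

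PR1 missed the low-count filter and so has no place in the count of calls. An exact two-sided permutation test over the 6 libraries gave p = 0.1, the smallest value that 3 against 3 allows. With the filter removed, edgeR gave it an adjusted p of 0.00899. It also entered the test without SEC 3 (edgeR adjusted p 0.00609), its lowest SEC library, and without any one REC library (0.021 to 0.0278). It missed the filter again without SEC 1, without SEC 2, and with other scalings, DESeq2, limma voom and the replicate block. Per kilobase of exon it was at rank 10411 in SEC 1, 8504 in SEC 2 and 17660 in SEC 3, far below PR3 and PR4.

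PR2 was practically unread. It is annotated at chr3:21188517-21189859 on the minus strand. SEC libraries held 0 PR2 reads each, against 0, 8 and 0 in REC 1, 2 and 3, or 0.440 CPM in REC 2. For SEC a count of 0 allows up to 0.0817 CPM over the group. The difference, at least 1.89-fold lower in SEC, rested on REC 2 alone, and the exact two-sided permutation test over the 6 libraries gave p = 1.0. The summed level of 5 guard and myrosin cell markers was 0 to 0.371 CPM in SEC, against 2.35, 159 and 0 CPM in REC 1, 2 and 3. The part this has in the PR2 reads was not tested.

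PR5 was detected at a low level in both groups. It sits at chr1:28177703-28178940 on the plus strand. SEC 1, 2 and 3 held 0, 5 and 14 PR5 reads, against 9, 34 and 26 in REC, or 0, 0.341 and 1.3 CPM in SEC and 0.542, 1.87 and 1.53 CPM in REC. The groups overlapped, since SEC 3 lay above REC 1. The means were 0.547 ± 0.673 CPM in SEC and 1.31 ± 0.689 CPM in REC (SD, n = 3 each), with a log2 fold change of -1.27 ± 1.27 (SE) and an edgeR adjusted p of 0.411. No alternative gave a call, and the fold change moved most without SEC 3, to -2.82.

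CHIA, the acidic chitinase, had few reads, most of them in REC. Its position is chr5:8143699-8145252 on the minus strand. SEC 1, 2 and 3 held 0, 3 and 4 CHIA reads, against 12, 33 and 16 in REC, or 0, 0.205 and 0.371 CPM in SEC and 0.723, 1.82 and 0.939 CPM in REC. Every SEC library lay below every REC library, as for 36.8% of tested genes. The means were 0.192 ± 0.186 CPM in SEC and 1.16 ± 0.579 CPM in REC (SD, n = 3 each), with a log2 fold change of -2.55 ± 1.17 (SE).

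The CHIA difference did not pass the test, with an edgeR adjusted p of 0.09. It passed when libraries were scaled by size alone (log2 fold change -3.09, edgeR adjusted p 0.0499) and by limma voom with quality weights (-2.79, adjusted p 0.0488). It did not pass in DESeq2 (-2.61, adjusted p 0.122). The count of the 7 genes called lower in SEC was therefore 0 by edgeR with TMM scaling, also at an unadjusted p under 0.05. It was 1 by edgeR with library size alone, 0 by DESeq2 and 1 by limma voom.

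PDF1.2, the defensin often used as a readout of the jasmonate and ethylene branch, had 0 reads in all 6 libraries. Its gene lies at chr5:17907069-17907598 on the minus strand. A count of 0 allows up to 0.0817 CPM in SEC and 0.0579 CPM in REC, counting error only. The near copies PDF1.2b and PDF1.2c also had 0 reads in all 6 libraries. Multiply placed reads do not enter the gene counts, but sequence shared with other loci covers little of these genes: 0.6% of the 50-base windows of PDF1.2, 5.5% of those of PDF1.2b and 0.7% of those of PDF1.2c recur elsewhere in the genome. The other 6 genes had no such window.

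The regulators of the PDF1.2 branch were unevenly represented. ORA59 and ERF14, ethylene response factors known to act on PDF1.2, had 0 reads in all 6 libraries. ERF1, another such factor, had 18, 46 and 13 reads in SEC, against 8, 59 and 102 in REC, with a log2 fold change of -0.70 (edgeR adjusted p 0.533). These 3, like other genes named only for having 0 reads, were singled out after their values were seen. Of 17 listed jasmonate and ethylene regulators, 14 were tested, 7 rose in SEC, 1 fell and 6 did not pass. Their median log2 fold change was 1.123, against -0.07 over all tested genes, of which 28.9% were called higher and 31.9% lower in SEC. The single fall was lost without REC 2, SEC 1 or SEC 3.

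Among the regulators that rose was MED25, a Mediator subunit used by jasmonate-responsive transcription, which averaged 138 ± 13.5 CPM in SEC, against 23.7 ± 5.45 CPM in REC (SD, n = 3 each), or 2.54 ± 0.24 (SE) as a log2 fold change, with an edgeR adjusted p of 7.87e-05. WRKY33, a factor in defence against necrotrophic fungi, averaged 968 ± 50.9 CPM in SEC, against 154 ± 39.1 CPM in REC (SD, n = 3 each), a log2 fold change of 2.65 (edgeR adjusted p 6.07e-05), though it overlaps opposite-strand genes. ERF96, a small ethylene response factor, had 95, 108 and 53 reads in SEC and 0 in each REC library, at least 120-fold higher in SEC. Its bound ran from 78.2-fold to 135-fold with each library left out.

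The called genes of the jasmonate wound branch were lower in SEC. Of 6 listed genes 3 were tested, and VSP1 and VSP2, vegetative storage proteins induced by jasmonate and wounding, fell. Over all tested genes 31.9% were called lower in SEC. VSP2 stood at 0.443, 3.89 and 2.6 CPM in SEC, against 1383, 1236 and 2704 CPM in REC, or -9.56 ± 0.80 as a log2 fold change (SE), with an edgeR adjusted p of 4.2e-05, and of -10.24 without SEC 2. VSP1 had a log2 fold change of -7.81 (edgeR adjusted p 0.000153), which was -6.90 without REC 3 and -8.43 without SEC 3. VSP1 and VSP2 are related neighbours, so reads that fit both were not counted. LOX2, a lipoxygenase of jasmonate synthesis, was not called (log2 fold change -1.12, edgeR adjusted p 0.565), and its sign turned without REC 2.

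Of 32 listed salicylate regulators, 27 were tested, 7 rose in SEC, 7 fell and 13 did not pass, with a median log2 fold change of 0.43. Both counts are near the shares of all tested genes, 28.9% higher and 31.9% lower in SEC. The number that rose was 4 with upper-quartile scaling, 3 with scaling by library size alone and 3 without SEC 2. TGA1, a bZIP factor of the pathway, averaged 242 ± 40.1 CPM in SEC, against 26.4 ± 15.2 CPM in REC (SD, n = 3 each), a log2 fold change of 3.2 (edgeR adjusted p 0.000468). DMR6, an enzyme that removes salicylate by hydroxylation, fell to 11.6 ± 0.766 CPM in SEC, against 46.4 ± 4.37 CPM in REC (SD, n = 3 each), a log2 fold change of -2.00 (edgeR adjusted p 0.000234). WRKY18, a WRKY factor, also fell, by 2.23 on the log2 scale (edgeR adjusted p 0.00213).

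Other salicylate response genes were detected beside PR1. Of 10 listed, 5 were tested, 3 rose and 1 fell, while 4 had 0 reads in all libraries. Among all tested genes 28.9% were called higher and 31.9% lower, and with 5 tested genes nothing is read from these counts. GRXS13, a glutaredoxin, stood at 526, 786 and 577 CPM in SEC, against 24.5, 17.9 and 22.3 CPM in REC, or 4.87 ± 0.27 (SE) as a log2 fold change, with an edgeR adjusted p of 1.4e-05. MLO12, a gene of powdery mildew susceptibility that overlaps a gene on the opposite strand, rose by a log2 fold change of 4.25 (edgeR adjusted p 0.000395). The fall of GSTF6, a glutathione transferase with a close copy, was small (-1.12, edgeR adjusted p 0.0389) and was lost without SEC 1, SEC 2, SEC 3 or REC 3. GSTF7, a glutathione transferase on the same list, went the other way (log2 fold change 1.95) and was not called (edgeR adjusted p 0.0583).

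In each gene family of the effectors, fewer of the listed relatives passed the low-count filter than missed it. Over all genes 17246 of 33602 passed. The chitinase family (10 of 22) and the thaumatin-like family (11 of 23) were near that share, so no trait of these 2 families is read from it. In the PR1 family, 21 relatives were listed, 11 had 0 reads in all libraries and 3 were tested. AT2G19970 fell, with 17.2, 27.0 and 32.4 CPM in SEC, against 287, 208 and 495 CPM in REC, a log2 fold change of -3.69 (edgeR adjusted p 0.000138). Its neighbour AT2G19990 fell by 3.81 on the log2 scale (edgeR adjusted p 0.0169), a call lost without REC 3 (-2.33), SEC 1 or SEC 2. AT3G19690, which overlaps a gene on the opposite strand, had 36, 41 and 29 reads in SEC and 0 in REC, at least 49.9-fold higher, or 32.4-fold to 51.3-fold with each library left out. PR1 was thus not the only family member with reads in SEC and none in REC.

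Of the 3 listed relatives of PR2, BG1 and BG3 had 0 reads in all libraries. AT4G16260, annotated as a glycosyl hydrolase, had 1159, 1107 and 611 reads in SEC, against 0, 0 and 10 in REC 1, 2 and 3. Its log2 fold change was 8.60 ± 0.93 (SE), with an edgeR adjusted p of 0.000136. It was 8.00 without REC 2 and at least 909-fold higher without REC 3. As with PR4, the REC reads all came from REC 3.

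Of 22 other chitinase genes, 10 were tested, 5 rose in SEC, 1 fell and 4 did not pass, with a median log2 fold change of 2.4. The shares over all tested genes were 28.9% higher and 31.9% lower in SEC, and with 10 tested genes no family effect is read. In all libraries 9 of the 22 had 0 reads. CTL2, a chitinase-like gene linked to secondary cell walls, had 1417, 1406 and 702 reads in SEC and 0 in each REC library, at least 1660-fold higher, or 1080-fold to 1880-fold with each library left out. Its relative CTL1, linked to primary cell walls, fell to 52.6 ± 10.8 CPM in SEC, against 269 ± 36.0 CPM in REC (SD, n = 3 each), a log2 fold change of -2.35 (edgeR adjusted p 9.37e-05). ChiC had 211, 408 and 413 reads in SEC, against 1, 0 and 17 in REC, a log2 fold change of 6.30 (edgeR adjusted p 0.00125), which was 5.70 without REC 2. Without REC 3 a single REC read was left, and the ratio was 978 with a 95% counting interval of 175 to 38700. The 2 chitinase-like genes thus differed in opposite directions.

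Of 23 thaumatin-like relatives of PR5, 11 were tested, 2 rose, 1 fell and 8 did not pass, and the number that fell was 3 with scaling by library size alone. Across all tested genes 28.9% were called higher and 31.9% lower in SEC. OSM34, an osmotin, had 250, 210 and 212 reads in SEC, against 0, 0 and 1 in REC, a ratio of 949 with a 95% counting interval of 170 to 37500 (212-fold at least without REC 3). AT4G36010 rose by a log2 fold change of 2.01 (edgeR adjusted p 0.00829), or 2.77 without REC 2, and AT1G75800 fell by 1.26 on the log2 scale (edgeR adjusted p 0.00204).

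Of 14 other defensin genes, 8 had 0 reads in all libraries and 1 was tested. That gene, PDF1.5, had 0 reads in SEC, against 128, 96 and 33 in REC 1, 2 and 3. It was at least 60.7-fold lower in SEC, or 36.5-fold to 78.8-fold with each library left out. All defensins together summed to 0 to 1.16 CPM in SEC and 2.11 to 9.94 CPM in REC. Among 8 listed thionins and potato-type proteinase inhibitors, which block digestive enzymes, 3 were tested and all 3 rose. With 3 tested genes, and 28.9% of all tested genes called higher in SEC, no family effect is read from this. AT5G43580 stood at 489, 659 and 630 CPM in SEC, against 10.4, 5.34 and 20.3 CPM in REC, a log2 fold change of 5.62 (edgeR adjusted p 6.16e-05; 6.24 without REC 3). Its neighbour AT5G43570 rose by 4.04 on the log2 scale (edgeR adjusted p 5.16e-05), and AT2G38870 by 1.15 (edgeR adjusted p 0.00445), a call lost with scaling by library size alone.

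**Figure D3:**
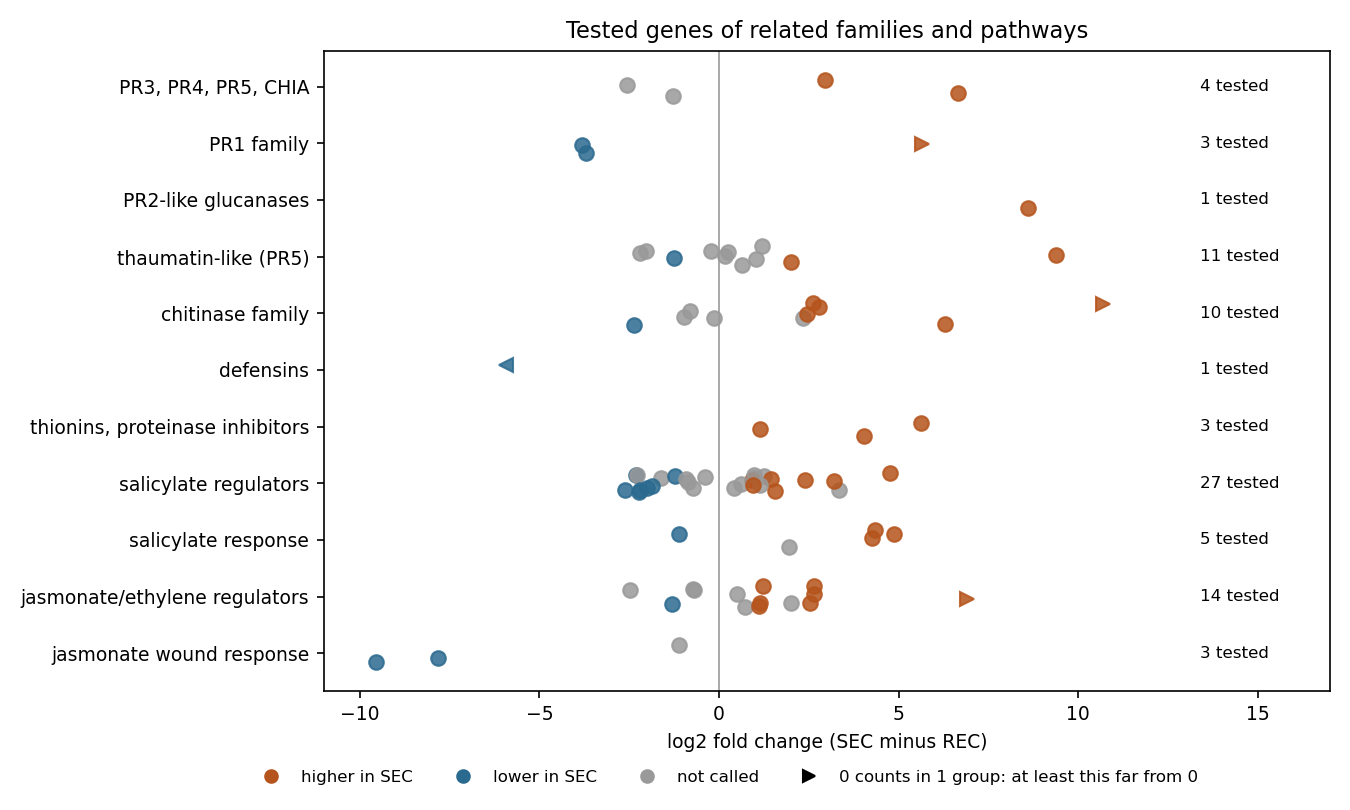
Log2 fold changes, SEC minus REC (horizontal axis), of tested genes in the related lists (rows). Points are genes, orange where called higher in SEC, blue where called lower and grey where not called, and triangles are lower bounds for genes with 0 counts in 1 group. Chitinases and proteinase inhibitors lie mainly on the right, VSP1 and VSP2 far left, and salicylate regulators on both sides.

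Markers of other cells and of handling also differed between the groups. So did 60.8% of all tested genes, 28.9% as higher and 31.9% as lower in SEC. Of 8 handling stress genes 7 rose and 1 fell, and their summed level was 4830 to 5830 CPM in SEC and 524 to 785 CPM in REC, with none at 0 in a group. Of 5 mesophyll genes 4 were tested and 3 fell, with summed levels of 11.6 to 16.8 CPM in SEC and 762 to 1550 CPM in REC, and LHCB1.3 at 0 in SEC. Of 5 epidermal genes 4 fell, with 0 to 4.52 CPM in SEC and 119 to 188 CPM in REC, and PDF1, a protodermal gene that is no defensin, at 0 in SEC. Vascular genes summed to 0.751 to 3.25 CPM in SEC and 0.880 to 29.2 CPM in REC, and pollen genes to at most 1.76 CPM in SEC and 0.0587 CPM in REC. The part these have in the levels of the defence genes was not tested. The nectary genes CRC, SWEET9 and CWINV4 were at 0 in all 6 libraries, and summed nectary levels, 56.6 to 89.1 CPM in SEC and 19.4 to 24.1 CPM in REC, were nearly all BOP2, a boundary gene.

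**Figure D4:**
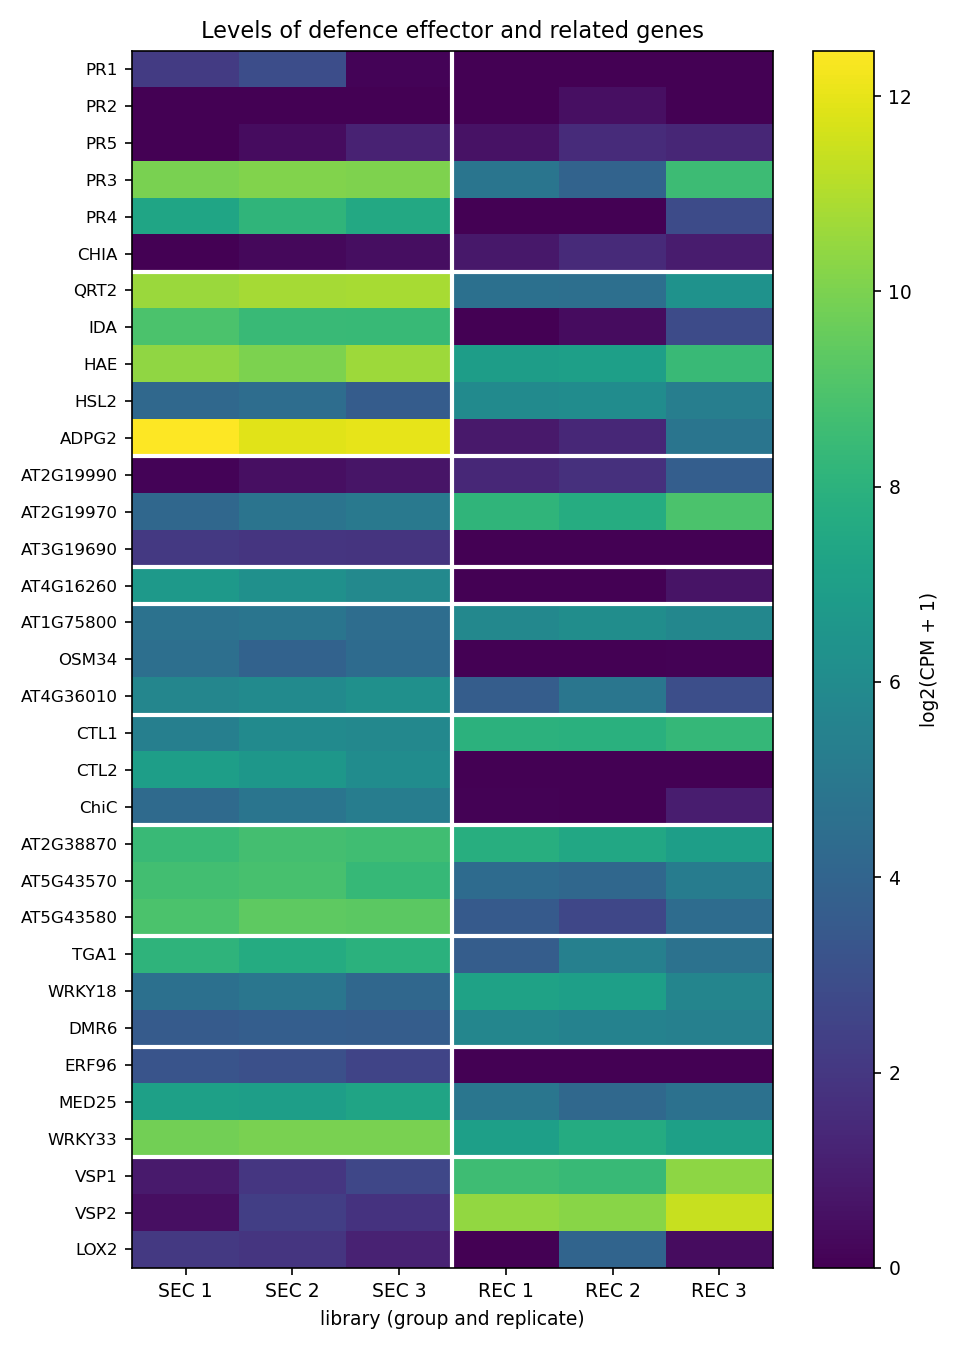
Levels as log2(CPM + 1) (colour) of 6 of the 7 effector genes and of named related genes (rows, lists parted by white lines) in the SEC and REC libraries (columns). PR3 and PR4 are bright in all SEC columns and, within REC, brightest in REC 3, as QRT2, IDA, HAE and ADPG2 are.

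By pattern over the 6 libraries, each tested effector had near neighbours among 10837 genes with a mean of at least 10 CPM. Likeness was the root mean square difference of centred log2 CPM, so 0 would be an identical profile. A small count was added before logs were taken, which weighs most where reads are few, as for PR5 and CHIA. For PR4 the nearest were CYP76C2 (AT2G45570), a cytochrome P450, at 0.211 and SUGTL5 (AT3G05400), a major facilitator protein, at 0.396. CYP76C2 had 207, 245 and 156 CPM in SEC, against 0, 0 and 5.17 CPM in REC 1, 2 and 3. For PR3 they were the overlapping AT3G12502 at 0.069 and AT4G33666, an uncharacterised protein, at 0.379, with 103, 61.8 and 61.0 CPM in SEC and 1.39, 1.32 and 26.2 CPM in REC. These neighbours were picked for their likeness, so a shared order of libraries is no further finding.

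For PR5 the nearest were AAP1 (AT1G58360), an amino acid permease, at 0.558 and AT4G38760, a nucleoporin, at 0.619. For CHIA they were AT4G38760 at 0.218 and KEA2 (AT4G00630), a potassium efflux antiporter, at 0.281. AT4G38760 had 1.86, 5.53 and 9.09 CPM in SEC, against 18.7, 29.9 and 22.7 CPM in REC, so the same gene was near both PR5 and CHIA.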

How the data were processed

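RNA-seq was done on 3 SEC and 3 REC libraries of sorted protoplasts, with cDNA from 18 amplification cycles per the labels' protocols. The deposited values are unnormalised read counts per gene. Per the submitters' processing notes the authors' tools included HTSeq 0.6.1, TopHat2 2.0.9, Trimmomatic 0.32.3, Picard 1.119, FastQC 0.11.2, bcl2fastq 1.8.4 and DESeq2, and the build was TAIR10. Neither annotation release nor strand setting was given in the sources used here. The counter's 5 summary rows (no feature 42.78% to 45.91% of records, more than 1 site 6.86% to 11.83%, ambiguous 0.41% to 0.54%) stayed out of library sizes and tests.

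In edgeR 4.0.16 (R 4.3.3), filterByExpr by group left 17246 of 33602 genes, libraries were scaled by TMM, and SEC was set against REC by the quasi-likelihood F test, with p adjusted by Benjamini-Hochberg over all tested genes and a threshold of 0.05. Fold changes are SEC minus REC. The test gives no SE, so each SE is the size of the log2 fold change divided by the square root of F. Where a group had 0 counts, the fold is a bound against 3 counts over the group, from reads pooled over each group's summed scaled library sizes rather than from mean CPM, and with 1 to 3 counts a ratio with an exact 95% counting interval. Floors and intervals allow for counting error alone, because PCR copies are not separate molecules. No label ties replicates to separate plants or sorts. The p-values therefore measure only the spread between these 6 libraries, possibly technical spread.

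Coordinates are the table's, with starts counted from 1. Strand, exons, names, overlaps and sequences are RefSeq's TAIR10.1. Of 32454 genes matched to it, 14406 have the table's start and 10315 have both its start and end. Levels and ranks per kilobase thus divide the table's counts by exon lengths of models that can differ from those counted. The 7 genes and 18 related lists of 200 entries were chosen with earlier results of these data known. Named genes are the 7, up to 3 genes per related list and 2 per marker list with the smallest adjusted p, and the 2 nearest genes per tested effector. GSTF7 was named beside GSTF6 after its values were seen. Alternatives were other scalings and filters, DESeq2 1.42.0, limma 3.58.1 voom with quality weights, a threshold of 0.01, a replicate block, a fit without organelle genes, gene span for exon length, and each library left out. Adding reads of AT3G12502 to PR3 was chosen after seeing the data. The fit was tested on simulated data in which few genes changed. That test cannot show how scaling and calls hold where 60.8% of tested genes are called. The promoter of PR1 is not reported here.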

Additional observations from a re-analysis of the deposited data

How the results depend on the processing

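Of the 7 effector genes, 2 were called higher in SEC and 0 lower. The number higher was 1 with scaling by library size alone and at an adjusted p of 0.01, and 1 to 3 with each library left out. It was also 3 without the low-count filter. Both counts of 3 include PR1, which missed the filter in the main fit. The number lower was 1 with scaling by library size alone and 1 with limma voom, and 0 with each library left out. The median log2 fold change over all tested genes was -0.31 with upper-quartile factors and -0.61 with library size alone, against -0.07 with TMM, and the share of calls that were higher in SEC was 41.5% and 33.7%, against 47.5%. Same-numbered SEC and REC libraries did not deviate together (correlations of -0.022, -0.01 and -0.016 over genes). With the replicate block, PR3 had a log2 fold change of 4.47 (edgeR adjusted p 0.015) and PR4 of 8.26 (0.00804), and 4644 genes were higher and 4871 lower, against 4978 and 5499. The block ended the call of GSTF6 (-1.01, edgeR adjusted p 0.11) and changed no other call among the named genes. LOX2 turned positive with limma voom (1.4), with the replicate block (1.61) and without REC 2 (3.7, the top of a range from -1.7 with each library left out), and the cause was not tested. The level of PR3 per kilobase in SEC was 664 CPM by gene span, against 776 CPM by exon length. Depth limits PR2, PR5, CHIA and PDF1.2, which had at most 34 reads in any library.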
